A study of Mus musculus with 4 samples.

Results

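The EF-hand calcium binding proteins described here are encoded by 8 genes, *Pvalb*, *Ocm*, *Calb1*, *Calb2*, *S100a1*, *S100b*, *Hpca* and *Vsnl1*, out of 29924 gene names on the arrays. They were found by their exact gene symbol among the non-control spots, which gave 13 probes. The genes were selected with their ratios of mutant over control on these arrays already known, so these ratios are given as a description and without a test. RNA of mouse cochlear ducts at E14.5 was compared on 4 Agilent 2-colour arrays, each holding 1 pool of *Sox2-Tbx2LOF* ducts and 1 pool of control ducts. The mutant genotype was Sox2(creERT2);Tbx2(fl/fl) and the control genotype Tbx2(fl/n.d.), so the second *Tbx2* allele of the controls was not determined. All pools were of the NMRI strain, and all dams had received 4 mg tamoxifen by mouth at E12.5. Female pools filled arrays 1 and 2, and male pools filled arrays 3 and 4. The dyes were swapped within each sex, with the mutant in Cy5 on arrays 1 and 3 and in Cy3 on arrays 2 and 4. According to the methods the controls lacked Cre, the ducts were taken whole and the spiral ganglion was removed. The mating scheme for the mutants gave a membrane reporter to the mutants and also to any Cre-negative littermates used as controls. CreERT2 is a Cre recombinase that works only in the presence of tamoxifen. Here it is inserted at *Sox2*, a gene of the prosensory cells that give rise to hair and supporting cells and also of glial precursors. The deletion of *Tbx2* is thus aimed at cells that use *Sox2* and not at the whole duct. The paper shows loss of TBX2 in the developing organ of Corti and the adjacent greater epithelial ridge. Deletion in glial precursors was not tested here.

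An EF-hand is a loop held between helices whose acidic side chains bind a calcium ion. Some EF-hand proteins are buffers that take up calcium after it enters a cell, and others are sensors that change shape with calcium and then act on a target. In the cochlea, parvalbumin, calbindin and calretinin are known from hair cells and from spiral ganglion neurons, oncomodulin from outer hair cells, and S100 proteins from supporting cells and glia. At E14.5 hair and supporting cells are only beginning to form, and a whole duct also holds other epithelium, mesenchyme and nerve fibres. In such bulk RNA, fewer cells of a type and less RNA per cell cannot be told apart.

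Of the 13 probes of 60 bases, 3 lie on the calcium-binding loop itself. They are shown because they match the part of the transcript that encodes the EF-hand. The PROSITE EF-hand calcium-binding pattern, of 13 amino acid positions, was searched in the 3 sense reading frames of each probe that had no stop, either whole or with at least its first 9 positions where the probe ended within it. The pattern was found in 22 of the 39429 gene probes, or 0.0558%. The codons that fit the pattern are in capitals, bases 10 to 48 of the *S100a1* probe (all 13 positions), 32 to 58 of the *Ocm* probe (9 positions) and 27 to 59 of the *Calb2* probe (11 positions).
S100a1, A_55_P1979645: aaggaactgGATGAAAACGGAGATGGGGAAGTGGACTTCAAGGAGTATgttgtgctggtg
Ocm, A_55_P2094916: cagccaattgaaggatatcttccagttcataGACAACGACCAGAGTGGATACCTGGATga
Calb2, A_52_P556433: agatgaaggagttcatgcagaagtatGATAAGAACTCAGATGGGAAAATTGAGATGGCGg
The *S100a1* probe was well above background in all 8 pools, whereas the loop probes of *Ocm* and *Calb2* were well above background in 0 of 8. The remaining 10 probes, among them both *Pvalb* probes, hold no such pattern in an open frame.

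Of the 8 genes, *Pvalb* was the one whose ratio was far from 0 on every array. Its transcript was lower in the mutant pools by a log2 ratio of −1.23 ± 0.28 (SD, n = 4 arrays), a fold of 2.35. The mean log2 ratios of the other 6 genes that could be tested lay between −0.098 for *S100b* and 0.24 for *Calb1*, and *Calb2* was below the signal filter. Levels below are normalized log2 signals of a probe in a pool, after background correction with an offset that pulls dim probes together, and ratios are log2 of mutant over control within an array. Probes entered the test when 4 or more of the 8 pools exceeded background clearly, and each gene was represented by its brightest such probe. With a Benjamini-Hochberg adjusted p below 0.05 from limma and a fold of at least 1.5 as criteria, 65 of the 21042 genes tested were lower (0.309%) and 28 higher (0.133%). Of the 7 genes tested here, 1 met them on the lower side, *Pvalb*, and 0 on the higher side. By adjusted p alone the shares over all genes were 2.92% lower and 2.26% higher, and the counts among the 7 genes were again 1 and 0. Mutant pools all lay below control pools for 2.59% of all genes and all above for 1.75%, and among the 7 genes for 2, *Pvalb* and *Vsnl1*, and 0. The genes were chosen on the same contrast, so nothing is read from these counts.

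**Figure D1:**
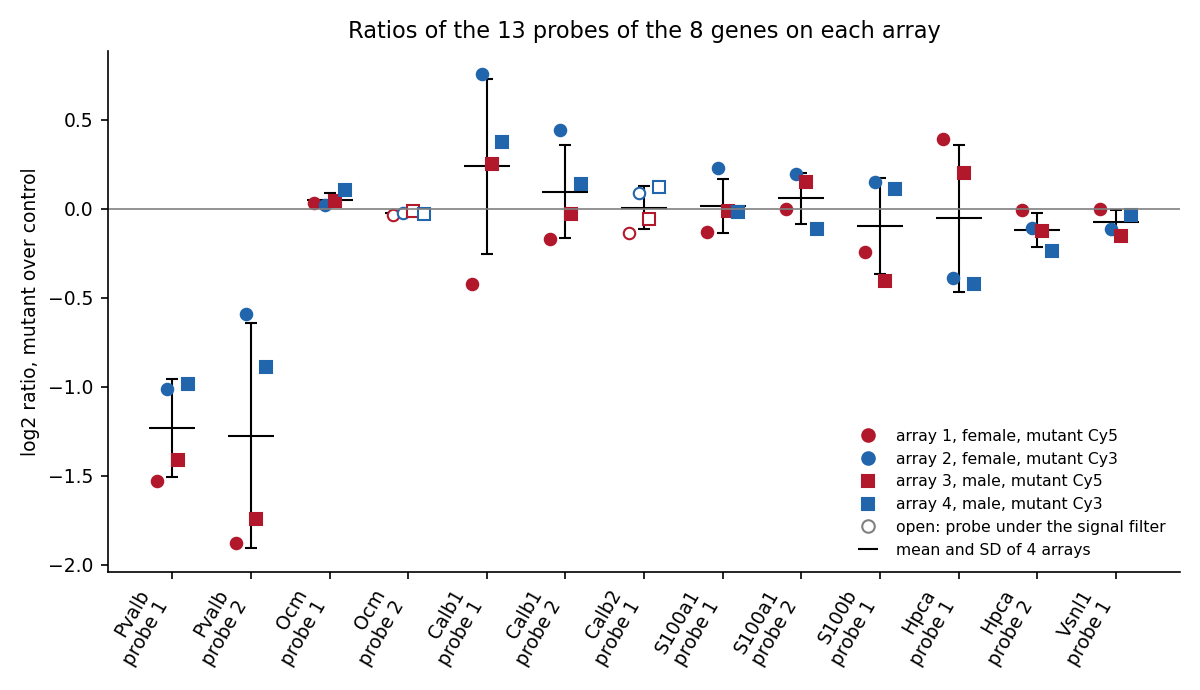
The log2 ratio of mutant over control is plotted for each of the 13 probes, one point an array, with colour for the dye of the mutant RNA, shape for sex, bars for mean and SD of 4 arrays, and open symbols for probes below the signal filter. Both *Pvalb* probes lie below 0 on 4 of 4 arrays, and the second was not well above background in any mutant pool, so its points show only a direction, while the *Hpca* and *S100b* probes that stood for their genes change sign with the dye.

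Parvalbumin, encoded by *Pvalb*, is a soluble buffer of fast muscle fibres, of some interneurons and of sensory cells. Its brighter probe, A_55_P2114437, lies on the minus strand of chromosome 15 of mm9 from 78021951 to 78022010 and was well above background in all 8 pools. Its level in the mutant pools of arrays 1 to 4 was 7.75, 7.58, 8.14 and 7.65, and in the control pools 9.28, 8.59, 9.55 and 8.63. The highest mutant pool, the male pool of array 3, lay below the lowest control pool, the female pool of array 2, so the groups did not overlap. The ratios were −1.53, −1.01, −1.41 and −0.98. On the arrays with mutant RNA in Cy5 the mean was −1.47 and on those with mutant RNA in Cy3 it was −0.996, so the size of the difference, but not its sign, moved with the dye. Between the spots of this probe on one array the ratio had an SD of 0.057 to 0.12, less than the spread between arrays.

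The other *Pvalb* probe, A_55_P2059040, from 78021549 to 78021608 on the same strand, stood well above background in all 4 control pools and in 0 of the 4 mutant pools. Its level in the control pools was 8.25, 7.16, 8.40 and 7.41, and in the mutant pools it read 6.37, 6.56, 6.66 and 6.53. The groups did not overlap for this probe either. Because the mutant signal has only a bound, the difference is given as at least 2.3-fold lower in the mutant. For that bound the mutant signal of an array was replaced by the dimmest signal still called above background where it fell under it. Both probes, whose stretches do not overlap, gave the same order of groups.

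Oncomodulin, encoded by *Ocm*, is the other parvalbumin of mammals. Its brighter probe, A_55_P2073825, on chromosome 5 from 144780676 to 144780735, read 6.92, 6.96, 6.996 and 6.93 in the mutant pools and 6.89, 6.94, 6.95 and 6.83 in the control pools. These levels overlapped, and in the control the probe was well above background in 3 of 4 pools. The mean ratio was 0.051 ± 0.038 (SD, n = 4), above 0 on 4 of 4 arrays, as it was for 8.85% of all genes tested. The loop probe, from 144785309 to 144785368, read between 6.22 and 6.32 in the 8 pools, and no fold is given for it.

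Calbindin, encoded by *Calb1*, is a buffer with several EF-hands, and its mean ratio was the highest of the 7 genes. Its brighter probe, A_66_P102374, on chromosome 4 from 15835078 to 15835137, read 8.37, 9.17, 9.02 and 9.03 in the mutant pools and 8.80, 8.42, 8.77 and 8.65 in the control pools. The mutant pool of array 1 was the lowest of all 8 pools, and the other 3 mutant pools were above every control pool. The ratios were −0.42, 0.75, 0.25 and 0.37, with a mean of 0.24 ± 0.49 (SD, n = 4), so the difference was smaller than the spread between arrays. With mutant RNA in Cy5 the mean was −0.086 and with mutant RNA in Cy3 it was 0.56, so the ratio also moved with the dye. Leaving out single arrays, the log2 ratio fitted with the dye term ran from 0.070 without array 3 to 0.41 without array 1. The other probe, A_55_P2181602, on chromosome 4 from 15833582 to 15833641, gave a mean of 0.096 ± 0.26 and was also lowest on array 1. Its ratios of −0.17, 0.44, −0.029 and 0.14 were negative where the mutant carried Cy5 and positive where it carried Cy3.

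Calretinin, encoded by *Calb2*, is the nearest relative of calbindin. Its only probe, the loop probe on chromosome 8 from 112678555 to 112678614, read 6.13, 6.31, 6.28 and 6.37 in the mutant pools and 6.27, 6.22, 6.34 and 6.25 in the control pools. The groups overlapped and no pool was well above background, so a difference was not detectable at this signal. *Calb2* is the one gene of the 8 that did not enter the test.

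S100 proteins are small EF-hand proteins that mostly act as dimers on other proteins. *S100a1* is read on chromosome 3 by A_55_P1979650, from 90314959 to 90315018, and by the loop probe, from 90315191 to 90315250. The first read 10.93, 11.26, 11.12 and 11.15 in the mutant pools and 11.07, 11.04, 11.14 and 11.17 in the control pools, with a mean ratio of 0.015 ± 0.15 (SD, n = 4). The loop probe read between 10.51 and 10.68 in the mutant and between 10.49 and 10.63 in the control, with a mean ratio of 0.057 ± 0.14. The groups overlapped for both probes, and neither mean exceeded its spread.

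*S100b* is known as a glial gene and was read by A_51_P468260 on chromosome 10 from 75723783 to 75723842. The mutant pools read 10.80, 11.06, 10.92 and 11.20 and the control pools 11.04, 10.91, 11.33 and 11.09. The groups overlapped, and the ratios of −0.24, 0.15, −0.41 and 0.11 were negative where the mutant carried Cy5 and positive where it carried Cy3. Their mean was −0.098 ± 0.27 (SD, n = 4).

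Hippocalcin, encoded by *Hpca*, and visinin-like protein 1, encoded by *Vsnl1*, are neuronal calcium sensors, which move to membranes when they bind calcium. The brighter *Hpca* probe, A_55_P2088905, on chromosome 4 from 128789510 to 128789569, read 11.13, 10.41, 10.78 and 10.704 in the mutant pools and 10.74, 10.80, 10.58 and 11.13 in the control pools. Its ratios of 0.39, −0.39, 0.20 and −0.42 followed the dye in the direction opposite to *S100b*, and their mean was −0.055 ± 0.41 (SD, n = 4). A ratio whose sign followed the dye on 4 of 4 arrays was found for 31.9% of all genes tested and for 2 of the 7 genes, *Hpca* and *S100b*. The dimmer *Hpca* probe, from 128788820 to 128788879, was negative on 4 of 4 arrays, with a mean of −0.12 ± 0.094.

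*Vsnl1* was read by A_52_P515880 on chromosome 12 from 11332454 to 11332513. The mutant pools read 7.294, 7.227, 7.225 and 7.275, and the control pools 7.297, 7.342, 7.377 and 7.313. The groups did not overlap, but the highest mutant pool and the lowest control pool, both of array 1, lay side by side. The mean ratio was −0.077 ± 0.068 (SD, n = 4), a fold of 1.06, and it was negative on 4 of 4 arrays, as it was for 9.31% of all genes tested. *Pvalb* and *Vsnl1* were the 2 of the 7 genes with that sign on every array, and their mean ratios were −1.23 and −0.077.

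**Figure D2:**
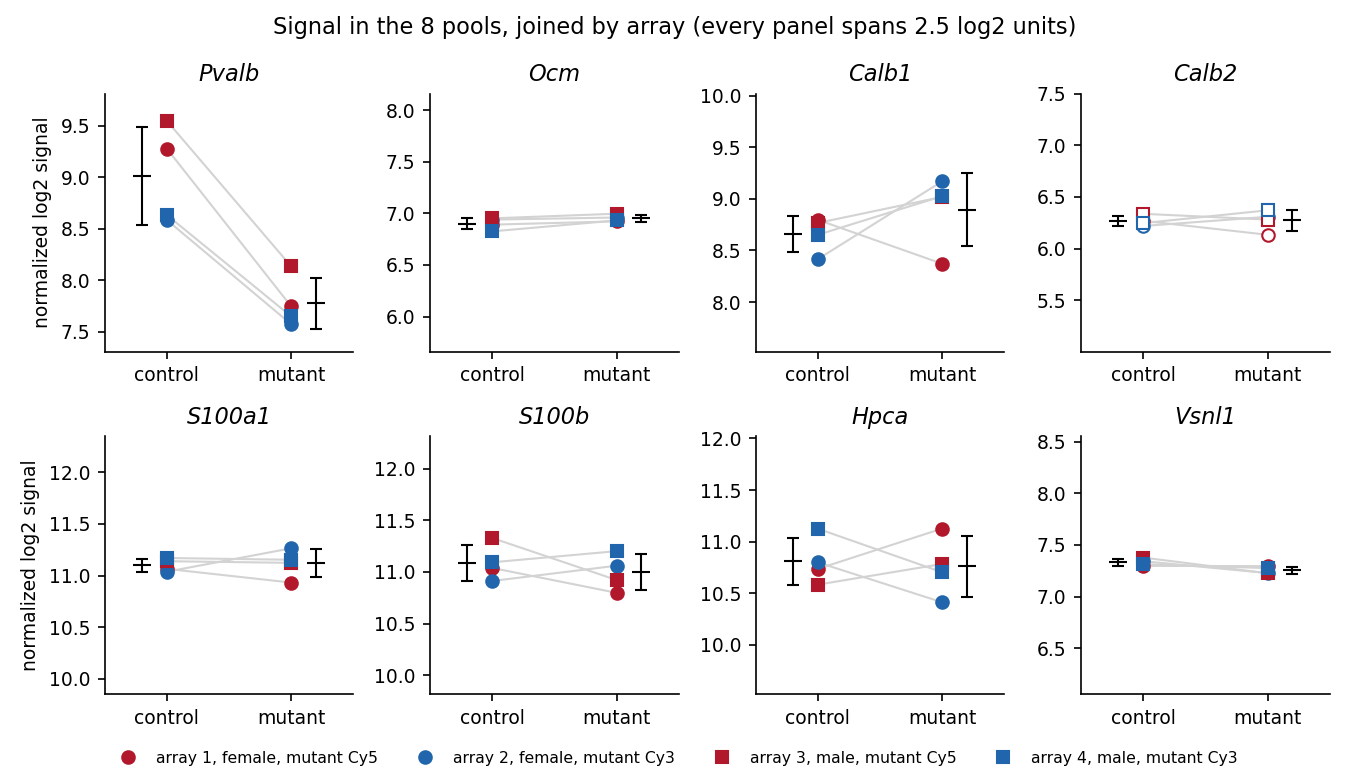
The normalized log2 signal of the 4 control and the 4 mutant pools is plotted for each gene, with grey lines joining the pools of one array and bars for mean and SD of 4 pools. Every panel spans the same range. The lines fall on all arrays for *Pvalb*, cross for *Calb1*, *S100b* and *Hpca*, and are nearly level for *Ocm*, *Calb2* (open symbols, below the signal filter), *S100a1* and *Vsnl1*.

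Whether the difference depended on sex is independent of how the genes were chosen and was tested. The *Pvalb* ratio was −1.27 in the female and −1.20 in the male pools, a difference of −0.074 with a standard error of 0.084 (interaction term of limma, adjusted p = 1). Over the 7 genes the female minus male difference lay between −0.15 for *Calb1* and 0.11 for *Hpca* and the adjusted p was 1 for each. Over all 21042 genes 0 passed the adjusted threshold (0%), and 558 had an unadjusted p below 0.05 from limma. With 2 arrays a sex the number of arrays limits this test.

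The level itself, averaged over the mutant and the control pool of an array, was also compared between the sexes. *S100b* had a mean level of 10.95 on the female and 11.14 on the male arrays, a difference of −0.18 with a standard error of 0.058. This was the largest difference of the 7 genes relative to its error, and it did not pass after adjustment over all genes (adjusted p = 1 from limma). For *Pvalb* the female and male means were 8.30 and 8.49 (SE of the difference 0.26, adjusted p = 1 from limma). None of the 7 genes passed, and over all genes 8 of 21042 did (0.038%).

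Genes whose levels over the 8 pools were most like those of *Pvalb*, after each dye had been centred, were *Chga*, *Ina*, *Oasl2*, *Scg3* and *Tecrl*. Their Pearson correlations with *Pvalb* were 0.994, 0.988, 0.987, 0.986 and 0.986, and the Spearman values lay between 0.929 and 1. The 8 pools share 4 arrays and fall into the genotypes, so these values mostly rank genes by how steadily they were lower in the mutant, and they are a description with no test. *Chga* and *Scg3* encode proteins of secretory granules, *Ina* a neuronal intermediate filament, *Oasl2* an interferon-induced protein and *Tecrl* a reductase-like protein. Their log2 ratios of mutant over control lay between −0.71 for *Ina* and −0.27 for *Oasl2*, each smaller than that of *Pvalb*. Among the 8 genes, the correlation with *Pvalb* was 0.74 for *Vsnl1*, 0.43 for *S100b*, 0.15 for *Hpca*, −0.21 for *S100a1*, −0.29 for *Ocm* and −0.47 for *Calb1*.

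Neurons of the spiral ganglion are known to use *Pvalb*. The marker lists were chosen with earlier results of these data known, so their counts are a description. Of 12 neuron markers, 11 were tested, 7 of them fell and 1 rose (adjusted p below 0.05 from limma). Over all genes tested 2.92% fell and 2.26% rose by the same threshold. The median log2 ratio of the neuron markers was −0.39, beside 0.0024 over all genes tested. *Elavl3*, a neuronal RNA-binding protein, fell most, by 1.08 on the log2 scale (SE 0.060, adjusted p = 0.000101 from limma), and *Isl1*, a transcription factor that cochlear epithelium also uses, rose by 0.20 (adjusted p = 0.0246). The summed signal of the tested neuron markers ran from 52740 to 59100 in the mutant and from 54250 to 56580 in the control pools, and *Isl1* and *Snap25*, neither of which fell, held 71.9% to 84.4% of it. Without these 2, left out after the sums were seen, the sum of the other 9 ran from 9234 to 10630 in the mutant and from 11860 to 15230 in the control. The 2 left out were markers that did not fall. The lower mutant sum therefore follows in part from that choice, and nothing is read from it. The remaining neuron marker, *Neurod1*, was below the signal filter. Of 8 Schwann cell precursor markers 3 fell, *Foxd3* most (−1.18). The part of these cells in the *Pvalb* result was not tested.

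Skeletal muscle is another tissue rich in parvalbumin. Of its 9 markers, *Myod1*, *Acta1*, *Ckm* and *Des* were below the signal filter. *Actc1* fell by 0.21 (adjusted p = 0.0398 from limma), and the other 4 did not pass, with *Tnnt3* highest at 0.027. However, *Actc1* was well above background in only 1 of 4 mutant and 3 of 4 control pools. Its mean levels of 6.56 in the mutant and 6.77 in the control lay near the floor, which limits this fall. The summed signal of the 5 tested muscle markers ran from 3245 to 3931 in the mutant and from 3215 to 3932 in the control, and the part of muscle in the *Pvalb* result was not tested. All 10 hair cell markers were tested and 0 fell. *Myo15* (0.45, adjusted p = 0.00031 from limma) and *Myo7a* (0.17) rose, and *Gfi1* was lowest at −0.089 without passing. The size of the *Myo15* ratio moved with the dye, at 0.69 and 0.69 with the mutant in Cy5 and 0.22 and 0.20 in Cy3. The summed signal of the hair cell markers was 6003 to 7161 in the mutant and 5958 to 7002 in the control. The cochlear epithelium markers, 10 of 10 above the filter, had 1 rise, *Gata3* (0.34), and 1 fall, *Jag1* (−0.19). Chondrocyte and mesenchyme markers had 1 rise each, *Col9a1* (0.22) and *Col1a1* (0.27), and 0 falls, with *Hapln1* (−0.070) and *Pou3f4* (−0.049) lowest. Of the 6 blood markers 0 passed, with values from 0.012 for *Ptprc* to 0.19 for *Hba-a1*. The brightest markers of the neuron, hair cell, epithelium, muscle, chondrocyte, mesenchyme and blood lists were *Isl1*, *Atoh1*, *Oc90*, *Tnnt1*, *Col2a1*, *Col3a1* and *Hba-a1*, with ratios between −0.039 for *Tnnt1* and 0.20 for *Isl1*.

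**Figure D3:**
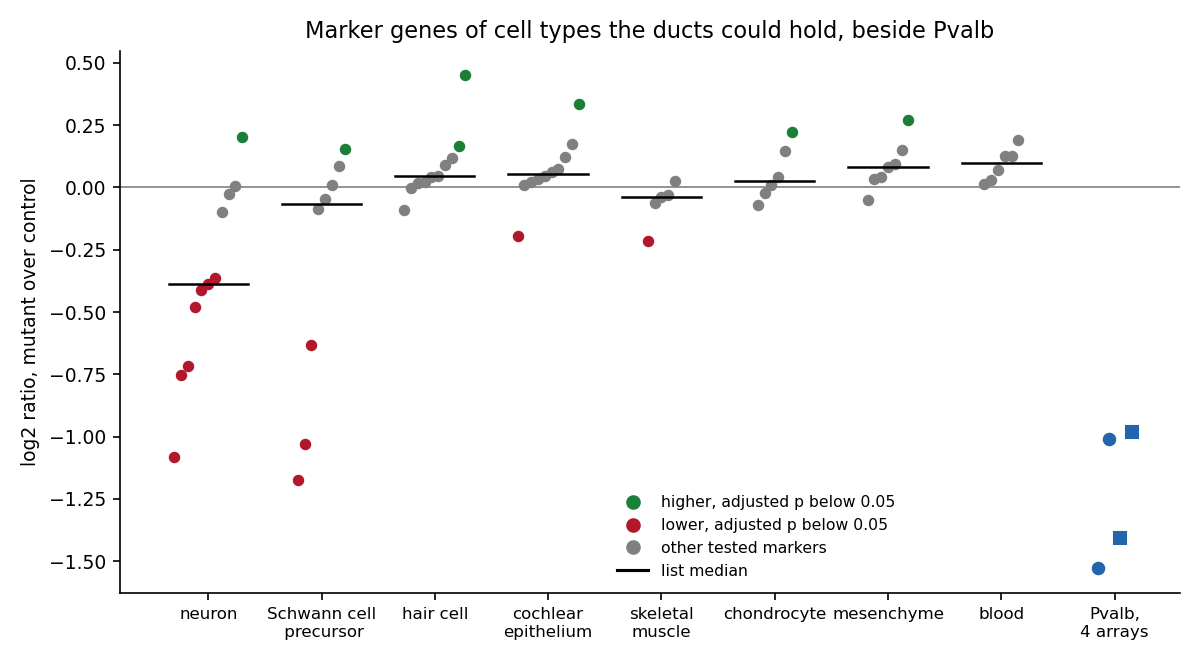
The log2 ratio of mutant over control is plotted for each tested marker of 8 cell types or tissues, with the list median as a black line and the 4 arrays of the brighter *Pvalb* probe at the right (circles female, squares male). Red and green mark adjusted p below 0.05 from limma. Neuron markers have a median of −0.39, and the medians of the other lists lie between −0.066 and 0.099.

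The wider EF-hand superfamily was counted in the same way, and with counts this small nothing is read from them. Of 89 other EF-hand genes, all on the array, 76 were tested and their median log2 ratio was 0.0031. By adjusted p alone 2 rose (2.63%, beside 2.26% of all genes) and 1 fell (1.32%, beside 2.92%). By adjusted p and a fold of 1.5, limma called 0 in either direction, beside 0.309% of all genes lower and 0.133% higher. An unadjusted p below 0.05 from limma was found for 22 of the 76 genes, beside 20.2% of all genes. The ratios of the 76 genes ran from −0.32 to 0.36, beside −1.23 for *Pvalb*.

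Among the S100 proteins 13 of 15 were tested and *S100a6*, which encodes calcyclin, rose. It was read on chromosome 3 from 90418160 to 90418219, and its levels were 10.09, 10.46, 10.32 and 10.50 in the mutant and 9.93, 9.94, 10.13 and 9.93 in the control pools. The mutant pool of array 1 lay below the control pool of array 3, so the groups overlapped, although the ratio was positive on 4 of 4 arrays. On average it was 0.36 ± 0.22 (SD over 4 arrays), with a limma SE of 0.034 and an adjusted p = 0.00104. The ratio was 0.17 on average with the mutant in Cy5 and 0.55 with the mutant in Cy3. Without a term for the dye the adjusted p was 0.136, and with the channels compared unpaired it was 0.0641.

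*Efhd1*, which encodes an EF-hand protein of mitochondria, was the 1 gene of the 76 that fell. It was read on chromosome 1 from 89207298 to 89207357, and its levels were 13.999, 14.097, 14.035 and 14.169 in the mutant and 14.346, 14.326, 14.389 and 14.505 in the control pools, without overlap. The ratio was negative on 4 of 4 arrays, with a mean of −0.32 ± 0.059 (SD over 4 arrays), a fold of 1.25. The limma SE was 0.036 and the adjusted p = 0.00264. The other 3 tested genes of the NECAB and EFHD family, *Efhd2*, *Necab2* and *Necab3*, had ratios between −0.014 and 0.014.

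*Sparc*, a secreted matrix protein with EF-hands, rose by one probe only. The brightest *Sparc* probe is at 55208939 to 55208998 of chromosome 11 and had a mean ratio of 0.21 ± 0.24 (SD, n = 4; adjusted p = 0.042 from limma), positive on 3 of 4 arrays, and its pools overlapped. The other *Sparc* probes gave −0.0026 ± 0.13 and 0.018 ± 0.066. With the mean over the probes the ratio was 0.077 (adjusted p = 0.288 from limma).

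In the other families 0 genes passed. The 7 tested neuronal calcium sensors, the family of *Hpca* and *Vsnl1*, had a median ratio of −0.026 and ran from −0.19 for *Kcnip4*, a potassium channel subunit, to 0.11 for *Hpcal1*. Medians were −0.010 for calmodulin and calmodulin-like genes (7 tested), −0.0062 for calcineurin B, CHP and CIB genes (7), 0.019 for penta-EF-hand genes (7), 0.016 for mitochondrial genes (6), 0.036 for muscle and myosin genes (7) and −0.041 for centrins (4). Of the 14 secretory pathway genes *Stim1*, the calcium sensor of the endoplasmic reticulum, had the highest ratio, 0.28, with an adjusted p of 0.0599 from limma. Secretagogin, encoded by *Scgn* and the nearest relative of the calbindins in the list, was below the signal filter, as were 12 others, among them *Rcvrn*, *Necab1* and *S100g*.

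**Figure D4:**
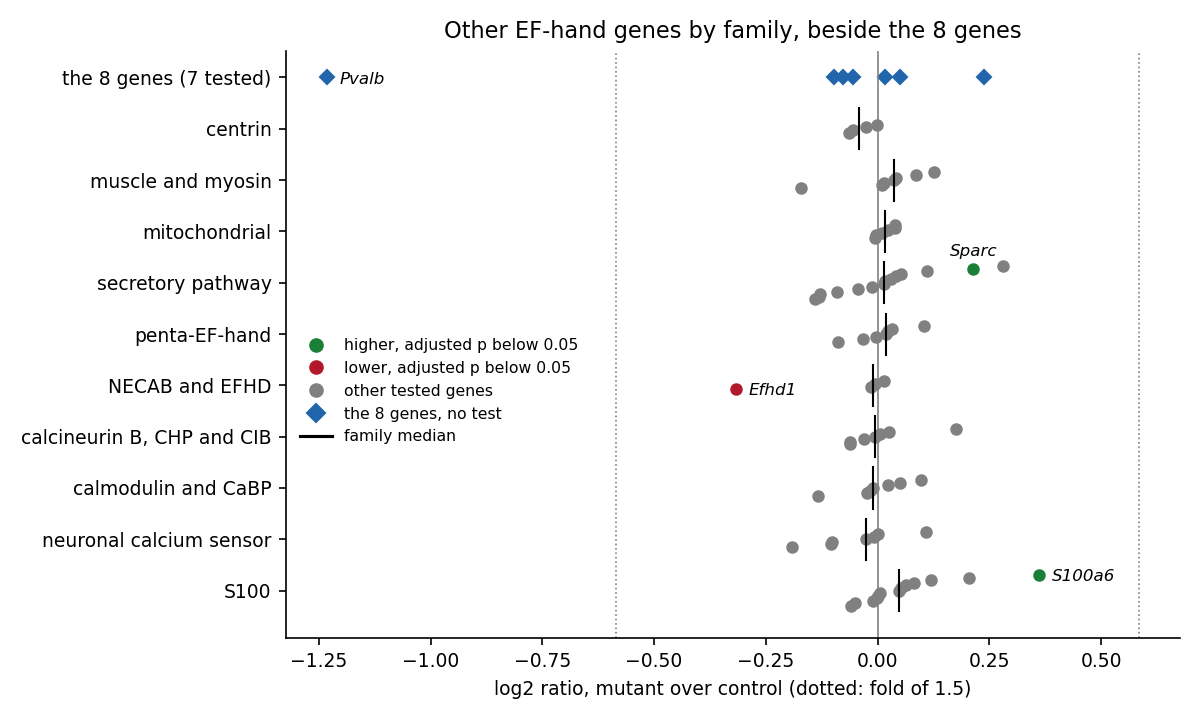
The log2 ratio of mutant over control is plotted for the 76 tested EF-hand genes by family, with family medians as black lines, and for the 7 tested genes of the 8 as blue diamonds, which carry no test. The named genes of the families passed an adjusted p below 0.05 from limma, and all 76 lie between the dotted lines at a fold of 1.5, whereas *Pvalb* lies outside.

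CreERT2 holds part of the oestrogen receptor, and 1 of the 4 *Esr1* probes exceeded background in all 4 mutant pools and in 0 of the 4 control pools, at least 4.24-fold higher in the mutant. The other 3 *Esr1* probes were not well above background in any pool, and whether the first one matches the inserted sequence was not analysed here. The targeted gene *Tbx2* had a log2 ratio of −0.12 ± 0.098 (SD, n = 4), negative on 4 of 4 arrays (limma SE 0.036, adjusted p = 0.124), and whether its probe lies in the deleted part was not analysed here. *Sox2* had a ratio of 0.012 ± 0.18. All arrays were of similar quality, with median spot intensities of 262.9 to 291.9 in Cy3 and 496.5 to 563.4 in Cy5 and 0 saturated spots, and all lay on 1 slide.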

How the data were processed

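The authors labelled pooled RNA, hybridised it to 2-colour arrays and deposited Agilent Feature Extraction 10.7.3.1 output, which holds unnormalized spot and background intensity in both dyes, Agilent's processed intensity and a log10 ratio that was not used. The deposited series value table holds a signed-fold score per probe, whose correlation across probes with the ratios here was 0.882 to 0.913; its normalization is not stated. The header names a custom design, the methods a whole-genome array. Probe names and mm9 coordinates are the files'.

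Mean intensities were corrected with normexp on the median local background (offset 50) and loess-normalized within arrays in limma 3.58.1 (R 4.3.3), leaving out control and outlier-flagged spots (8.29% to 8.56%). Spots of a probe were averaged, and it passed the background criterion where 50% or more of them did. Pool levels are loess and Aquantile channel values. Ratios of 21042 genes were fitted with genotype and dye as terms, 2 residual and 5.65 prior degrees of freedom. The methods' SAM test was not run. The script was tested on simulated data. Pools were independent, and mutant and control are paired by array. Members, marker lists and the other EF-hand list were chosen with earlier results of these data known. Besides the 8 genes, named genes were other EF-hand genes past adjusted p, the 5 most like *Pvalb*, the brightest marker and the largest rise and fall of each marker list, and *Tbx2*, *Sox2* and *Esr1*. Alternatives were other background corrections, normalizations, filters, dye terms, probe rules and each array left out. Values of some listed genes are not reported here.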

Additional observations from a re-analysis of the deposited data

Results flagged for a closer look

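Among the probes of the 7 tested genes and of *S100a6*, *Efhd1* and *Sparc*, 42 sets of 4 values were examined for one that stood apart, and 2 did, where chance flags about 1 in 20. The control level of *S100a6* on array 3 was 10.13, while those of the other 3 control pools lay between 9.925 and 9.937. The log2 ratio of *Efhd1* on array 2 was −0.229, while the other 3 lay between −0.354 and −0.336. The reasons were not tested.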

How the results depend on the processing

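The *Pvalb* ratio was negative under all 14 alternatives, between −1.66 (Agilent's processed signals) and −1.20, and the series value table gave −1.65. Of 97 values of the 7 genes under the alternatives, 7 moved by more than 1 SD of the arrays. Under the alternatives that gave a value, *S100b*, *Hpca* and *Vsnl1* stayed below 0 and *Ocm* and *Calb1* above, while *S100a1* was below 0 in 3 of 14. Genes called by adjusted p and fold numbered 93, against 169 from Agilent's processed signals, 141 from the series value table and 88 to 103 with each array left out. The 3 other EF-hand genes past adjusted p became 1 without a dye term and 1 with unpaired channels, *Efhd1*, and 2 to 6 with each array left out, 6 without array 2. *Sparc* lost its adjusted p in 10 of 14 alternatives. The sex difference of the ratio, with 0 genes, gave 19 with median centring. The female over male comparison, with 8 genes, gave 0 where all 8 pools had to be well above background. Mutant and control pools are paired by array in every ratio, and compared unpaired the channels gave 76 called genes. The slide or scan as a block gave no value, since all 4 arrays share 1 slide and 1 scan. The offset in the background correction sets a floor under dim probes, which limits *Ocm*, *Calb2* and the dimmer *Pvalb* probe most.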
